A study of Homo sapiens with 16 samples.

Results

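The transcript response of young WI-38 cells to heat shock was described from 4 RNA-seq libraries of the 16 libraries of the series. WI-38 is a line of human lung fibroblasts with a finite number of divisions. The 4 libraries were those labelled young and RNA-seq, 2 heat shocked and 2 controls, and all 23597 listed genes were considered, of which 13177 had enough counts to be tested. The young cells had reached passage 24; the senescent ones, used here only beside them, passage 36. All groups, controls included, had been kept without serum for 24 h and then in complete medium for another 24 h. Heat shock lasted 2 h at 44 °C (the label reads 440C, taken as a lost degree sign) and cells were harvested after it, so no recovery time was sampled. Ribo-seq, which reads the short pieces of mRNA that ribosomes protect, was done on matching groups. The title of the series names the collapse of protein homeostasis in senescence as its subject.

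When proteins unfold in heat, the transcription factor HSF1 is released from chaperones, forms trimers and binds heat shock elements, which are inverted repeats of the unit GAA, in the promoters of chaperone genes. Their products hold unfolded proteins in solution (small heat shock proteins), refold them with the use of ATP (HSP70, with HSP40 co-chaperones that deliver clients and with exchange factors that release them) or complete their folding (HSP90, TRiC). Heat also represses the transcription of many other genes, and damage to proteins in the endoplasmic reticulum (ER) or to translation can start further programs, the unfolded protein response and the integrated stress response.

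The promoters of 4 genes that rose are printed to show what such elements look like. Each is the 300-base RefSeq window (GRCh38.p14) from 250 bases before to 50 after the gene's start, 5′ to 3′ on the gene's strand. Capitals mark pairs of neighbouring units, GAA followed by TTC or TTC followed by GAA with NN between them. Overlapping pairs make the 3-unit motif, in which GAA, TTC and GAA, or TTC, GAA and TTC, alternate with NN between neighbours.
HSPA6, chr1:161524290-161524589, plus strand: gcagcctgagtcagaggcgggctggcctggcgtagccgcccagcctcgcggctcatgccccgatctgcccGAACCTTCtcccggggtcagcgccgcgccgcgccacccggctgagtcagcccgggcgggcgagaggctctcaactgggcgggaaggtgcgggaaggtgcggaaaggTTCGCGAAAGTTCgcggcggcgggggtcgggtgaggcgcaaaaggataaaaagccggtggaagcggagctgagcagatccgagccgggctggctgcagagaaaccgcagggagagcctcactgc
HSPA8, chr11:123062087-123062386, minus strand: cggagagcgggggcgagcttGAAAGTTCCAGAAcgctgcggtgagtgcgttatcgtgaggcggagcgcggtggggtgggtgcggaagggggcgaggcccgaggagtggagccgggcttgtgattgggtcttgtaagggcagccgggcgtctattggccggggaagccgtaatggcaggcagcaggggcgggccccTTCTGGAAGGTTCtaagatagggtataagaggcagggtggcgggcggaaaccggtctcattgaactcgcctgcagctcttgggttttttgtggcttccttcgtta
SERPINH1, chr11:75562003-75562302, plus strand: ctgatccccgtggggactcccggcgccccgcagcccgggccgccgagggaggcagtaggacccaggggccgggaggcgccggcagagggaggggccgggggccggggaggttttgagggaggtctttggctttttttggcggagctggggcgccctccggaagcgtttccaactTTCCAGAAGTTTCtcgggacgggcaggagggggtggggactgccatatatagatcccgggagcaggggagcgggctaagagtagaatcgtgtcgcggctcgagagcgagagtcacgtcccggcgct
HSPA1A, chr6:31815293-31815592, plus strand: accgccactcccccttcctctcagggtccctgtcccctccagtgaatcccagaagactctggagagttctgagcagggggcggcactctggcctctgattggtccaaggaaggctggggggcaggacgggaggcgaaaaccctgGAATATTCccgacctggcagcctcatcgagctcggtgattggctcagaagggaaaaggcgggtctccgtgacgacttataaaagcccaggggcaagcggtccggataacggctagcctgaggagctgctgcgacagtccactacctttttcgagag
The first 3 of these hold the 3-unit motif, at −74 from the start in HSPA6, −55 and −230 in HSPA8, and −76 in SERPINH1. HSPA1A holds only a pair of units in this window, together with a TATAAA box.

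The young libraries held 26434514 to 37126871 counts assigned to genes. Fibroblast markers were all present (10 of 10, summed TPM 11062 to 13859), led by COL1A1, COL1A2 and VIM. TPM are transcript levels scaled for gene length and for the total of the library. Markers of other cells were lower: smooth muscle 1099 to 1685 TPM in sum (5 of 5 present, mostly ACTA2), epithelium 136 to 148 (7 listed, ELF3 at 0), leukocytes 118 to 178 (6 listed, almost all CD68, with CD3E at 0) and endothelium 12.4 to 15.7 (5 listed, CDH5 at 0). No marker of these 5 lists was called with heat by edgeR in either fit described below, and only 1 epithelial marker had an unadjusted p under 0.05. In bulk RNA, fewer cells of a type and less RNA per cell cannot be told apart.

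The first question was which transcripts heat changed. With the spread pooled over all RNA-seq groups, 88 transcripts rose (0.668% of those tested) and 62 fell (0.471%) at an adjusted p under 0.05 in edgeR's quasi-likelihood test. Rises reached an 11.60 change in log2, and the largest fall among genes of at least 10 CPM was −2.90. CPM are counts scaled to the size of the library, with TMM factors. Changes are given as log2 fold changes with an approximate SE derived from the test, for 2 libraries a group, and they are measured against the scaled bulk of genes. Same-numbered libraries deviated together, and with the replicate number as a block 480 rose (3.64%) and 676 fell (5.13%), in all 8.77%. All 150 genes called without the block were called with it in the same direction. Without the block 1.14% of all genes tested were called, and 1333 of 13177 had an unadjusted p under 0.05. Counts of calls in the lists below are to be read against these shares. Under scaling by library size alone, which put the median of all genes at −0.27, 60 rose and 134 fell. Thus the balance of rises and falls depended on the scaling, and 25 of the rises and 1 of the falls (HPS6) stayed past the threshold in every one of 16 other settings. Of the genes named in what follows, HSP90AB1, HERPUD1, SESN1, ZNF93 and ZNF134 passed in 7 of the 16, KIF20B, XBP1 and YWHAG in 6, and ZNF136 in 5.

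**Figure D1:**
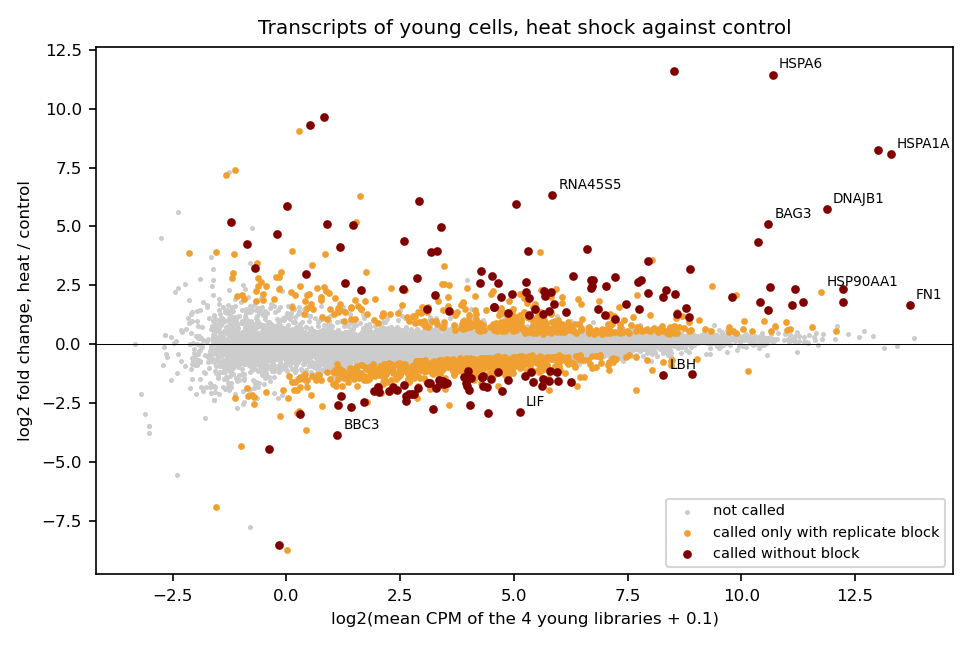
Log2 fold change of each tested gene (y axis) against its log2 mean level over the 4 young libraries in CPM (x axis); dark red points are the 150 genes called without the block, orange those called only with it, grey the rest. Rises reach far higher than falls, and most called falls lie between −1 and −3; the extreme values at low levels are fitted folds of genes with few counts in a group.

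The largest rises were in the inducible HSP70 genes. HSPA6, which cells hardly express without stress, had 1.02 and 1.36 CPM in control replicates 1 and 2 and 2469 and 4137 CPM in heat shock replicates 1 and 2 (11.45 ± 0.45, adjusted p = 5.07e-05). Its near-identical neighbour HSPA7, annotated as a pseudogene, had 0 and 16 counts in controls and 13898 and 24426 after heat, and how reads were split between this pair is uncertain. HSPA1A had 64.3 and 84.4 CPM in controls and 16978 and 22603 CPM after heat (8.06 ± 0.35). For HSPA1B, a near-identical copy, the levels were 52.0 and 55.3 CPM, and 13813 and 18653 CPM (8.24 ± 0.36). In each of these genes the lowest heat library lay far above the highest control. Per length, HSPA1A reached 13250 and 16549 TPM in heat-shocked cells, where the actin gene ACTB stood at 10615 and 11106 TPM. How reads were split between HSPA1A and HSPA1B is uncertain as well. Together they held 0.011% and 0.012% of all TPM in controls and 2.36% and 2.97% after heat. The ACTB change was −0.06 ± 0.15. It was −0.35 under library-size scaling, and it turned to 0.014 without heat shock replicate 1.

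Other members of the family changed less. HSPA8, the constitutive cytosolic HSP70, had 2382 and 1990 CPM in controls and 7756 and 7230 CPM after heat (1.78 ± 0.18). HSPA1L, a gene next to HSPA1A on the opposite strand, had 1.28 and 1.09 CPM, then 16.7 and 20.0 (3.94 ± 0.28). HSPH1, an HSP110 that exchanges the nucleotide of HSP70, went from 148 and 96.6 to 3533 and 1504 CPM (4.36 ± 0.66). In each group its replicate 1 was above replicate 2. Of 16 tested HSP70 and HSP110 genes of all compartments, 7 rose, the ER member HSPA5 among them, and 0 fell, with a median of 1.57 against 0.01 over all genes tested. With the block 10 rose, HSPA4L (8.13 and 3.71 to 143 and 34.8 CPM), HSPA4 and the ER gene HYOU1 being added, and 1, HSPA2, fell.

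HSP40 proteins bring clients to HSP70, and 3 of 21 cytosolic members rose. DNAJB1 had 121 and 155 CPM in controls and 6598 and 8147 after heat (5.74 ± 0.27). DNAJA4 had 0.99 and 1.09, then 55.9 and 73.5 CPM (5.95 ± 0.60). DNAJB2 changed by 1.51 ± 0.21. Most of the list stood near 0, and its median of 0.10 turned to −0.18 under library-size scaling. With the block 6 rose, among them DNAJB4 (49.6 and 30.8 to 643 and 326 CPM) and DNAJA1 (237 and 167 to 1455 and 766 CPM), and DNAJC14 fell. BAG3, an exchange factor that links HSP70 to small heat shock proteins and to autophagy, was the 1 of 6 BAG genes that rose, and BAG6 rose with the block. BAG3 had 88.6 and 85.9 CPM in controls and 2920 and 3087 after heat (5.11 ± 0.24).

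**Figure D2:**
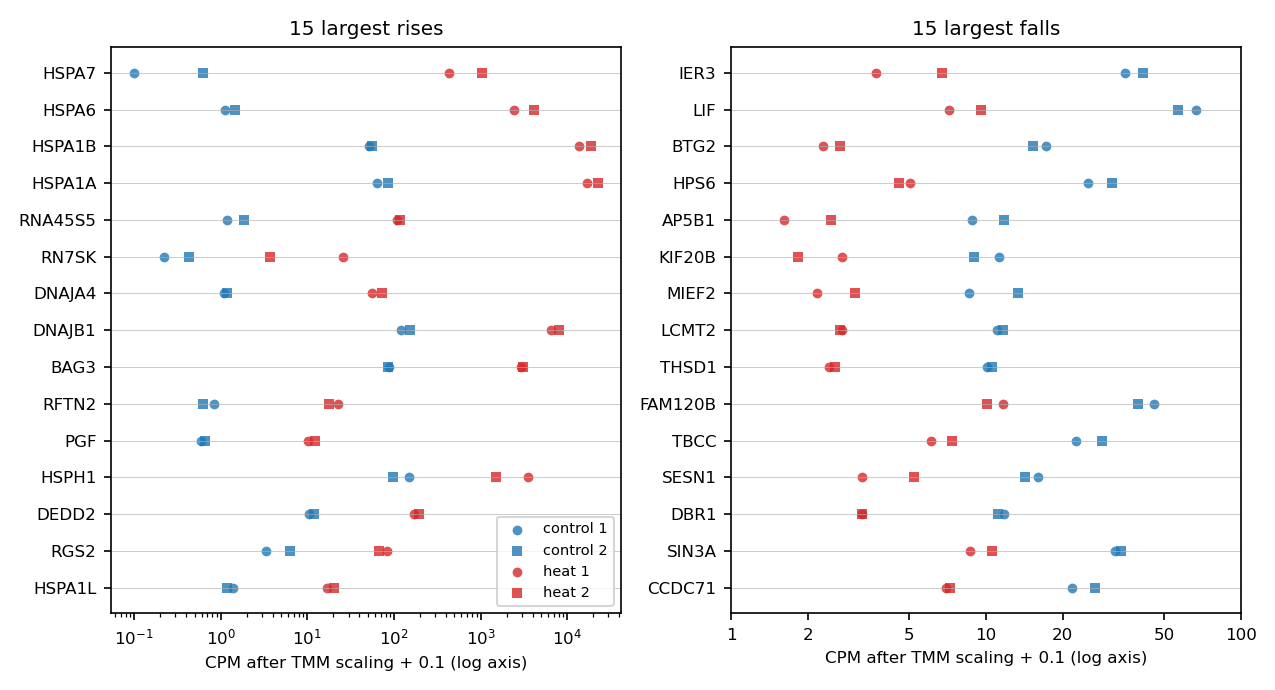
Level of the 15 genes that rose most and the 15 that fell most, all called and of at least 10 CPM in a group, in each of the 4 libraries (log x axis, CPM + 0.1; circles replicate 1, squares replicate 2; blue control, red heat shock). Control and heat shock libraries do not overlap in any of the 30 genes, which were chosen for their change; within a group RN7SK has the widest spread.

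In the HSP90 system, 4 of 20 genes rose and 0 fell (median 0.54). FKBP4, an immunophilin co-chaperone, went from 106 and 81.1 to 886 and 810 CPM (3.18 ± 0.21). HSP90AB1, the constitutive HSP90, had 1231 and 869 CPM in controls and 3645 and 3105 after heat (1.68 ± 0.26). The others were STIP1, which bridges HSP70 and HSP90 (1.56 ± 0.17), and AHSA1, which stimulates the ATPase of HSP90 (1.51 ± 0.19). HSP90AA1, the inducible HSP90, had 1536 and 916 CPM in controls and 7594 and 3681 after heat. The libraries of the groups did not overlap, yet the change of 2.20 ± 0.54 did not pass (adjusted p = 0.138), while it passed with the block (adjusted p = 8.67e-05). In both groups replicate 1 was above replicate 2, as for HSPH1. The block gave 8 rises in this list, CHORDC1, NUDC and ST13 being the other additions.

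Among 7 small heat shock proteins 3 rose. CRYAB had 32.8 and 39.8 CPM in controls and 226 and 301 after heat (2.86 ± 0.25), HSPB8, the partner of BAG3, changed by 2.72 ± 0.19, and HSPB1, the most abundant of them, by 2.43 ± 0.21. HSPB1 had 456 and 533 CPM in controls and 2332 and 2982 after heat. Over these 5 chaperone lists together, in which the HSP70 list also holds members of the ER and mitochondria, 18 of 70 tested genes rose and 0 fell, 29 rose and 2 fell with the block, and the median was 0.42. Their share of all counts was 1.36% and 1.13% in controls and 7.86% and 7.71% in heat-shocked cells. The 4 libraries thus separated by group on this share, with little spread within a group.

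Without the block few calls were made among regulators and the larger folding machines. Over all genes tested that rate was 1.14%, at which short lists would hold few calls in any case. Of 6 tested heat shock factors and regulators, 0 were called by edgeR in either fit, by DESeq2 or by limma, and 0 had an unadjusted p under 0.05. HSF1 itself had 47.0 and 64.5 CPM in controls and 61.5 and 85.0 after heat (0.39 ± 0.30). The groups overlapped, but both heat libraries were above the control of the same number (adjusted p = 0.101 with the block). HSBP1, a binding protein of HSF1, gave 0.28 ± 0.18, and −0.0050 under library-size scaling. Of 14 subunits of the chaperonin TRiC and of prefoldin 0 passed without the block (DESeq2 called 1, limma 0, and 2 had an unadjusted p under 0.05). With the block TCP1 (0.72), CCT4 (0.65) and CCT2 (0.54) rose, which is 21.4% of the list against 3.64% of all genes tested. Values were above 0 for 12 of the 14, and for 10 under library-size scaling. None of 35 proteasome genes passed in these fits, the count at an unadjusted p under 0.05 was 0, and their median of 0.11 turned to −0.17 under library-size scaling.

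In the ubiquitin and VCP list 20 of 23 genes did not pass, and the median of 0.18 turned to −0.10 under library-size scaling. UBB, a polyubiquitin gene, had 790 and 844 CPM in controls and 2232 and 2311 after heat (1.48 ± 0.19). ZFAND2A, which binds the proteasome under stress, went from 17.5 and 19.0 to 154 and 122 CPM (2.92 ± 0.32). Both were among the rises of the list, and ZFAND5 fell with the block. Autophagy genes held 0 calls of 22 by edgeR, DESeq2 and limma (2 at an unadjusted p under 0.05), and with the block ATG5 and ATG16L1 rose. The autophagy receptor SQSTM1 had 211 and 314 CPM in controls and 271 and 367 after heat. Its groups overlapped, while each heat library was above the control of its number (adjusted p = 0.137 with the block).

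**Figure D3:**
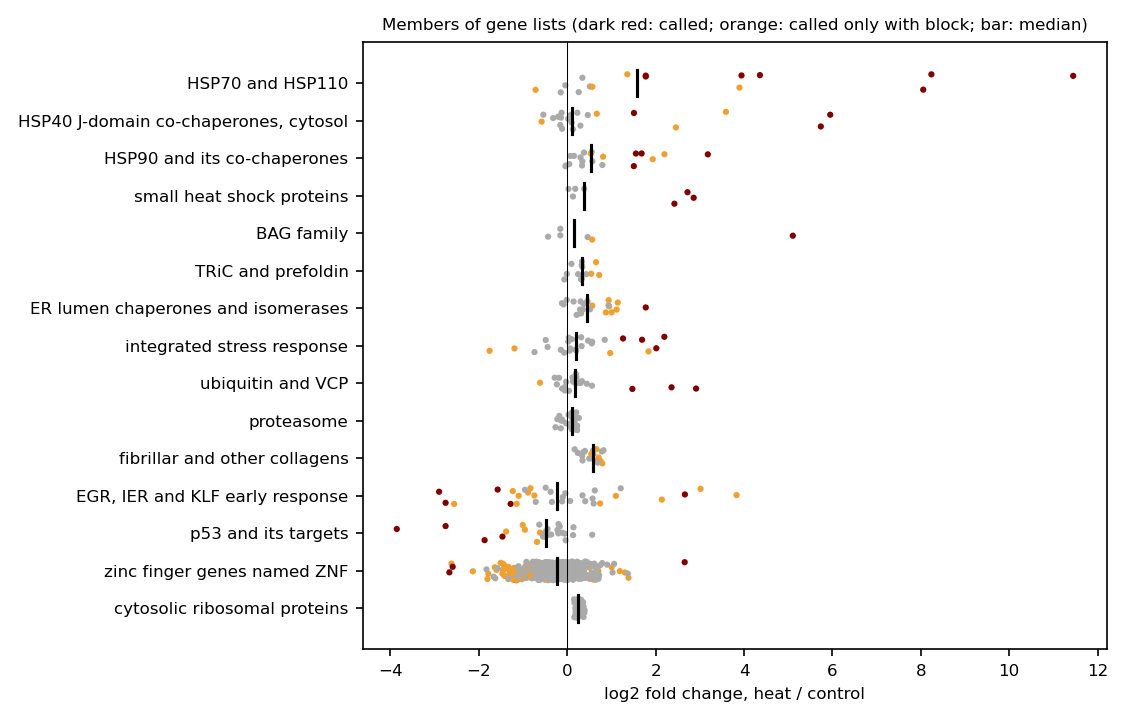
Log2 fold change of each tested member (points) of 15 gene lists, with the list's median as a bar; dark red members were called, orange ones only with the block, grey ones in neither fit. The chaperone lists reach far to the right from medians of 0.10 to 1.57, while proteasome and ribosomal protein genes stay close together near 0.

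In mitochondria HSPD1 and HSPE1, which form the HSP60 chaperonin, passed in edgeR with the block but not without it. HSPD1 had 447 and 271 CPM in controls and 2228 and 835 after heat (2.09 ± 0.54, adjusted p = 0.164; 0.000434 with the block). HSPE1 had 130 and 97.2, then 265 and 149 CPM (0.86 ± 0.33, adjusted p = 0.392; 0.00877 with the block). These were the 2 rises with the block among 15 mitochondrial chaperones and proteases, CLPX fell, and without the block 0 passed (DESeq2 called 2, limma 0, and 3 had an unadjusted p under 0.05).

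Among ER genes HSPA5 stood out. HSPA5, the ER HSP70, had 1326 and 1036 CPM in controls and 5046 and 3052 after heat (1.78 ± 0.32, adjusted p = 0.0464). It was the 1 of 22 ER lumen genes called, and it passed in 5 of 16 other settings, the call being lost under library-size scaling, by limma and without any 1 library other than young heat shock replicate 2. With the block 9 rose and 0 fell, the others being HSP90B1, HYOU1, CANX, PDIA4, DNAJB9, DNAJB11, SDF2L1 and MANF, with changes of 0.46 to 1.14 in the fit without it. The median of the list was 0.46, and 0.18 under library-size scaling. HERPUD1, part of the machinery that moves proteins out of the ER for degradation, had 56.1 and 61.4 CPM in controls and 485 and 282 after heat (2.71 ± 0.46). XBP1, whose spliced form drives ER chaperone genes, changed by 1.06 ± 0.19 (adjusted p = 0.0496). They were the 2 rises among 19 genes of the response and of ER-associated degradation, and 0 of these passed under library-size scaling. With the block EIF2AK3, the ER stress kinase PERK, rose as well.

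In the integrated stress response, in which phosphorylation of eIF2α lets ATF4 mRNA be translated, 4 of 26 genes rose. DDIT3, the factor CHOP, had 14.3 and 13.2 CPM in controls and 79.9 and 46.2 after heat (2.20 ± 0.35). PPP1R15A, which directs the phosphatase to eIF2α, had 103 and 142, then 465 and 523 CPM (2.02 ± 0.25). ATF4 changed by 1.26 ± 0.20 and SLC3A2, an amino acid transporter subunit, by 1.69 ± 0.31. Library-size scaling left 2 of these rises and limma 3: PPP1R15A passed in 15 of 16 other settings, ATF4 in 9, DDIT3 in 7 and SLC3A2 in 6. Targets of ATF4 did not all move that way: with the block DDIT4 (1.84) and ATF3 (0.98) rose, while CHAC1 (−1.70) and GDF15 (−1.36) fell.

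Early response genes moved both ways. FOS, an AP-1 subunit, had 1.07 and 1.16 CPM in controls and 15.2 and 18.3 after heat (3.91 ± 0.60), and was the 1 of 12 AP-1 genes that rose. With the block FOSB, FOSL2 and ATF3 rose as well and JUNB fell. IER5, a regulator of HSF1, had 54.3 and 61.0 CPM in controls and 346 and 384 after heat (2.66 ± 0.20). Of 32 EGR, IER and KLF genes it alone rose, and 4 fell. IER3, an early gene of survival signalling, had 34.9 and 41.2 CPM in controls and 3.59 and 6.65 after heat (−2.90 ± 0.42). ZFP36L2, which destabilises mRNAs with AU-rich elements, had 79.6 and 83.4, then 22.5 and 32.3 CPM (−1.57 ± 0.25). BTG2 and CYR61 were the other falls; CYR61, a target of the coactivator YAP, had 767 and 597 CPM in controls and 273 and 288 after heat. With the block 6 genes of this list rose, among them NR4A1, ARC and MCL1, and 11 fell, among them ZFP36, CTGF, KLF2, KLF6 and IER2. DUSP2, a phosphatase of MAP kinases, changed by 2.32 ± 0.33, while DUSP6 and SPRY2 fell with the block.

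Targets of the tumour suppressor p53 stood on the other side. Of 27 tested, 4 fell and 0 rose, and the median was −0.48. BTG2, an antiproliferative gene, had 17.0 and 15.1 CPM in controls and 2.20 and 2.58 after heat (−2.75 ± 0.34). BBC3, the death gene PUMA, had 2.87 and 4.87, then 0.34 and 0.17 CPM (−3.86 ± 0.51). SESN1, a sestrin of the stress response, changed by −1.87 ± 0.30 and AEN, a nuclease, by −1.46 ± 0.20. With the block 9 fell and 0 rose, the others being MDM2, PLK2, POLH, TP53INP1 and CDKN1A. CDKN1A, the inhibitor p21, had 578 and 684 CPM in controls and 318 and 507 after heat (−0.61 ± 0.28, adjusted p = 0.546; 0.0226 with the block). Its 2 heat libraries were both below its controls.

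Other regulators were among the largest falls. LIF, a cytokine, had 66.3 and 56.4 CPM in controls and 7.06 and 9.49 after heat (−2.89 ± 0.34). HPS6, a subunit of a complex that builds lysosome-related organelles, had 25.1 and 31.0, then 4.92 and 4.45 CPM (−2.58 ± 0.24). SIN3A, a scaffold of histone deacetylases, had 32.0 and 33.7 CPM in controls and 8.54 and 10.4 after heat (−1.79 ± 0.28). The group also held AP5B1, a subunit of an adaptor complex, KIF20B, a kinesin of cytokinesis, MIEF2, a mitochondrial fission factor, LCMT2, a tRNA-modifying enzyme, TBCC, a tubulin folding cofactor, DBR1, which opens intron lariats, and THSD1, FAM120B and CCDC71, at −1.79 to −2.40. LIF was among the falls of the cytokines and growth factors, and with the block NFKBIA and FGF7 fell and VEGFC rose.

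The non-messenger RNAs RNA45S5 and RN7SK were among the largest rises. RNA45S5, the entry for the precursor of ribosomal RNA, had 1.09 and 1.76 CPM in controls and 108 and 117 after heat (6.32 ± 0.33). The precursor contains the mature ribosomal RNAs and no label gives the RNA selection, so their reads cannot be told apart here. RN7SK, the RNA that holds the elongation kinase P-TEFb inactive together with HEXIM1, had 0.12 and 0.33, then 25.7 and 3.60 CPM (6.07 ± 1.04, adjusted p = 0.0387). Its 2 heat libraries differed widely, and it passed in 6 of 16 other settings. Small nucleolar RNAs called with the block went both ways, among them SNORA61 and SNORD22, which fell, and SNORD3A, called as a rise with 0.02 and 0.13 CPM in controls and 11.5 and 0.13 after heat, a difference seen in 1 heat library only. HEXIM1 mRNA fell, from 27.2 and 29.5 to 11.3 and 10.6 CPM (−1.37 ± 0.20). The 5 called MTRNR2L genes, near-identical nuclear copies of a stretch of the mitochondrial ribosomal RNA, also rose, MTRNR2L2 from 517 and 689 to 1733 and 2459 CPM (1.80 ± 0.31), and reads of the mitochondrial RNA itself cannot be told apart from theirs here. Genes of the mitochondrial genome were not analysed here.

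Among matrix genes FN1 and SERPINH1 rose. FN1, fibronectin, had 7747 and 5015 CPM in controls and 17784 and 22720 after heat (1.67 ± 0.26). It passed in 4 of 16 other settings. The call was lost under library-size scaling, by limma, with only the 4 young libraries and without any 1 of the 8 libraries. SERPINH1, the collagen chaperone HSP47, had 741 and 787, then 3749 and 3917 CPM (2.33 ± 0.22), and passed in all 16. With the block P4HA1, PLOD1, PLOD3 and BMP1, which modify or cleave collagen chains, rose beside SERPINH1, and LAMB1 and BGN beside FN1, while HAS2, ADAMTS1 and PLAU fell. None of 19 collagen genes passed by edgeR, DESeq2 or limma, 4 had an unadjusted p under 0.05, and with the block COL4A2, COL5A1, COL6A1, COL6A2, COL12A1 and COL18A1 rose, with values of 0.55 to 0.79 without it. All 19 were above 0 with a median of 0.58, and 17 were above 0 under library-size scaling with a median of 0.30. COL1A1 had 5811 and 7493 CPM in controls and 5704 and 11210 after heat, so its groups overlapped. ID3, a target of BMP signalling, rose from 88.3 and 92.9 to 290 and 521 CPM (2.16 ± 0.28), and HES1 and HEY1, targets of Notch, rose with the block.

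Housekeeping programs showed few calls. Of all genes tested, 1.14% were called without the block and 1333 of 13177 had an unadjusted p under 0.05. The 79 ribosomal protein genes gave 0 calls in both edgeR fits, DESeq2 and limma and 0 at an unadjusted p under 0.05, and all had values above 0 (median 0.24), but only 22 under library-size scaling (median −0.04). The same count of 0 held for 42 genes of oxidative phosphorylation. DNA replication (34 genes) and mitosis (28) had 0 calls by edgeR and limma, and DESeq2 called 1 replication gene; in each list 2 genes had an unadjusted p under 0.05. With the block CCNE2 and PRIM1, and AURKA, KIF11 and TTK, fell. Of 434 zinc finger genes named ZNF, 1 rose, ZNF473 (10.9 and 9.93 to 64.0 and 67.8 CPM), and ZNF136, ZNF93 and ZNF134 fell. With the block 8 rose and 51 fell, which is 11.8% falling against 5.13% of all genes tested. Kinases of splicing factors rose with the block in 3 of 10 cases, CLK1 having 39.1 and 14.2 CPM in controls and 140 and 72.2 after heat (1.99 ± 0.66, adjusted p = 0.305; 0.000242 with the block).

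Other stress and nuclear programs held single genes that moved. HMOX1, the heme oxygenase, had 33.0 and 23.9 CPM in controls and 64.2 and 58.4 after heat (1.11 ± 0.27, adjusted p = 0.134; 0.0247 with the block). Of 27 NRF2 targets and antioxidant enzymes 0 passed by edgeR or limma, DESeq2 called 3, and 4 had an unadjusted p under 0.05; with the block SOD1, a superoxide dismutase, rose beside HMOX1, and GCLC and SRXN1 fell. The metallothionein MT2A, which binds zinc and copper, had 730 and 657 CPM in controls and 770 and 688 after heat. Its groups overlapped, and within each replicate number the heat library was slightly higher (adjusted p = 0.833 with the block). SNRNP35, a protein of the minor spliceosome, was the 1 of 32 spliceosome and hnRNP genes that fell, from 12.6 and 13.4 to 4.06 and 4.28 CPM (−1.64 ± 0.23). CIRBP, an RNA-binding protein named for its induction by cold, had 153 and 187, then 83.4 and 121 CPM and fell with the block (adjusted p = 0.446 without it; 0.0388 with it). The interferon-stimulated genes IFIT3 and IRF1, the deacetylase SIRT1, the polycomb subunit EED and the kinase CDK9 also fell with the block. Of 45 translation factors 0 passed by edgeR, DESeq2 or limma and 2 had an unadjusted p under 0.05, and with the block EEF2, EIF5 and EIF4A2 rose.

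The block selects genes whose changes agree within replicate numbers, so the agreement of the numbers in its calls is a description. Among the largest rises that edgeR called with the block but not without it were HSPA4L (3.90 ± 0.83) and DNAJB4 (3.59 ± 0.68). The GTPase RRAD (3.34 ± 0.69) and MB21D1, the DNA sensor cGAS (2.55 ± 0.62), were others. Falls of this kind, among the largest, were ZFP36, which also destabilises mRNAs (−2.56 ± 0.52), and C15orf39 (−2.27 ± 0.43). Another was F3, tissue factor, which had 448 and 204 CPM in controls and 96.9 and 74.6 after heat (−1.93 ± 0.48). For F3 each heat library was below both controls.

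**Figure D4:**
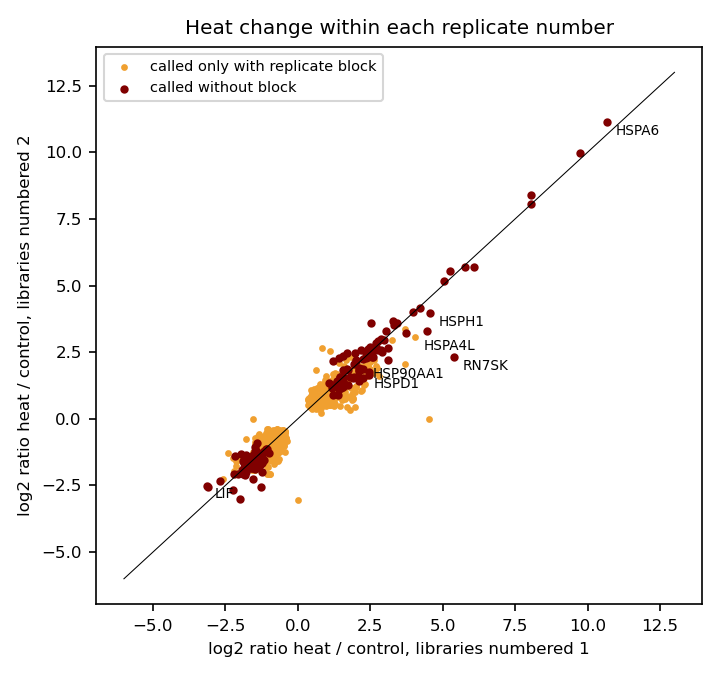
Log2 ratio of heat shock to control between the libraries numbered 1 (x axis) and those numbered 2 (y axis) for the genes called with the block; dark red genes were called without it too, and the line marks equal ratios. HSPH1, HSPA4L, HSP90AA1, HSPD1 and RN7SK lie below the line, with a larger ratio in replicate 1.

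Features that the fit did not use were then set beside the calls. Among 68 rising genes with a promoter in the RefSeq table, 4 held the 3-unit motif (5.88%), namely HSPA6, HSPA8, SERPINH1 and HSP90AB1, as did 0 of 46 falling genes and 0.502% of all tested genes with a promoter. Searched on both strands, the shorter 2-unit motif, which the longer one contains, was in 27.9% of rising, 10.9% of falling and 14.0% of all tested genes. Among genes that rose only with the block it was in 22.1%. A match describes the letters in this window alone.

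Genes called without the block had few exons, in both directions. In the GENCODE annotation (version 29, matched by symbol), 15 of 87 rising genes (17.2%) and 12 of 62 falling genes (19.4%) had a single exon, against 3.04% of all tested genes. The median number of exons was 4 in rises, 3 in falls and 9 in all tested genes, and the median span 10531, 11144 and 30392 bases. HSPA1A and HSPA1B are such intronless genes. Genes called only with the block lay closer to all tested genes. Their median number of exons was 8 in rises and 7 in falls, and 4.70% and 7.04% had a single exon. Their median span was 27600 and 22529 bases. Across 13055 genes the change correlated only weakly with the GC content of the transcript (Spearman 0.14, a description over genes, which are not independent). Of 9973 neighbouring pairs of tested genes within 100000 bases, both members rose in 4: HSPA6 with HSPA7, HSPA1L with HSPA1A, HSPA1A with HSPA1B, and HSPB1 with YWHAG, a 14-3-3 protein.

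Ribosome footprints of the matching young groups were a second readout, described without a test. This was because the young control footprint libraries differed by little more than sampling noise and count as 1 sample. Their chi-square per degree of freedom was 1.72, against 16.5 to 36.5 in other footprint groups. Of 68 rising genes with enough footprints, 67 had both heat libraries above both controls, against 27.1% of all measured genes, and of 62 falling genes 61 had both below, against 31.2%. HSPA6 footprints went from 1.25 and 0.10 to 2313 and 4148 CPM. Log2 ratios of footprints were taken after adding 1 CPM to each group mean, which gave 10.91 for HSPA6. The added 1 CPM pulls ratios toward 0 where footprints are few, so they are not on the same scale as the transcript changes. RFTN2, a raftlin, was the rise without this order: its transcripts changed by 4.97 ± 0.33 and its footprints from 1.37 and 1.17 to 1.04 and 3.15 CPM. GDF5, a growth factor, was the fall without it. For ZFAND2A the log2 ratio was larger in footprints, 5.13 against 2.92 in transcripts, and for ATF4 3.18 against 1.26. For DNAJA4 it was smaller, 3.63 against 5.95. Its control footprints were only 0.34 and 0.97 CPM, so the added 1 CPM lowers this ratio and the gap cannot be read as a difference in response.

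**Figure D5:**
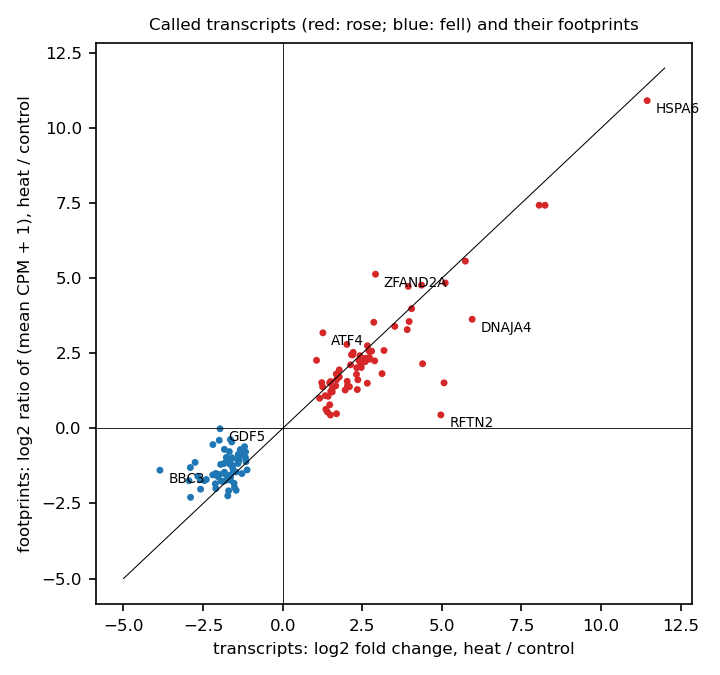
Log2 ratio of ribosome footprints, as mean CPM + 1 (y axis), against the log2 fold change of transcripts (x axis) for called genes with enough footprints, without those of 3 or fewer counts in a group; red rose, blue fell, the line marks equality. Most genes lie near the line, with ZFAND2A and ATF4 above it and DNAJA4 and RFTN2 below. The added 1 CPM lowers the ratios of DNAJA4 and RFTN2, whose control footprints were few.

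Senescent cells, whose libraries share no sample with the young ones, gave a value of the same sign for all 150 called genes, against 72.5% of all genes tested. Of the rises 45 and of the falls 22 were also called there. The background of calls was 0.364% for rises and 0.212% for falls. Both responses came from the same fit, with the spread of each gene pooled over all groups. The senescent calls are therefore not independent of the young ones. Among the rises the median was 2.44 in young and 1.87 in senescent cells, and among the falls −1.74 and −1.38. These genes were chosen on the young cells, so the smaller senescent medians are a description. Tested as a difference of responses, 0 of 13177 genes passed by edgeR (0%), while DESeq2 called 3, limma 2 and the block 1 (0.00759%), and the unadjusted p was under 0.05 for 119. For BAG3 the difference, senescent minus young, was −1.37 and for HSPA6 −0.07, with neither passing.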

How the data were processed

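RNA-seq libraries of TRIzol RNA were made with a TruSeq RNA kit, per the labels' protocols; no label gives selection or strand, so overlapping genes on opposite strands cannot be told apart. The authors deposited RSEM expected counts, which were whole numbers, and TPM. STAR, RSEM and Bowtie2, with the build hg19, appear without roles in the submitters' processing notes. Of 23597 genes listed, 5898 had 0 counts throughout; 25 symbols recur, and AKAP17A counts as 2 of the rises.

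Counts were filtered by filterByExpr, TMM-scaled and fitted over the 8 RNA-seq libraries, 1 mean per group, with edgeR 4.0.16 in R 4.3.3 (4 residual degrees of freedom, 3 with the block). P values were adjusted by Benjamini-Hochberg over 13177 genes, threshold 0.05. The procedure was tested on simulated data. Nothing says that replicates came from separate cultures, so p-values measure the spread between these libraries, which may be technical. Reads carry no molecular identifiers. Across genes, deviations of same-numbered libraries correlated at 0.481 to 0.658 in 6 pairs of groups; what the numbers mark is not given.

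Footprint CPM were TMM-scaled, for genes of at least 20 counts over the 4 young footprint libraries. Alternatives were the block, other scalings, no filter, DESeq2 1.42.0, limma 3.58.1 on log2(TPM + 1) and log2(TPM + 0.1), the 4 young libraries alone, and each library left out. Named genes are the 15 largest rises and falls of at least 10 CPM, the 10 most abundant called, up to 4 members per list and 10 each called only with the block; others, such as genes in counts of 5 or fewer and further list members called with the block, were named after their values were seen. Members and lists were chosen with earlier results of these data known. Genes with 3 or fewer counts in a young group get no fold. The fitted difference flagged for SULT1A4 is printed although its senescent heat shock group is at 0. Some genes are not reported here.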

Additional observations from a re-analysis of the deposited data

Results flagged for a closer look

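SULT1A4, a sulfotransferase, was the 1 gene whose heat response differed between senescent and young cells when replicate number was a block, at −11.07 in log2 (senescent minus young, edgeR). It had 425 and 197 counts in young controls, 388 and 156 in heat-shocked young cells, 302 and 174 in senescent controls, and 0 and 0 in heat-shocked senescent cells. The fitted value is no bound, since a group is at 0, and reads can be split between SULT1A4 and its near-identical copy SULT1A3.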

How the results depend on the processing

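The pairing of libraries moved the counts most. With replicate number as a block 480 transcripts rose and 676 fell, and 1 differed in response between senescent and young cells; for most lists the calls it changed stand beside the results. The rises numbered 181 without a filter on low counts, 221 by DESeq2 and 44 with only the 4 young libraries. The falls numbered 134 under library-size scaling, 136 without the filter, 224 by DESeq2, 122 by limma on log2(TPM + 1), 116 on log2(TPM + 0.1) and 4 with only the young libraries. The difference of responses gave 3 by DESeq2 and 2 by limma. Leaving out 1 library gave 29 to 86 rises and 2 to 37 falls. These were 29 and 4 without young control replicate 1, 31 and 5 without young control replicate 2, 45 and 2 without young heat shock replicate 1, and 57 and 3 without young heat shock replicate 2. Leaving out a senescent library moved the falls to 27 and 26 (controls 1 and 2) and 37 and 35 (heat shock 1 and 2), through the pooled spread. In these fits a lone library is assumed to vary like the other groups. The falls thus rest on the spread pooled over 8 libraries. Of 66 named genes that were called, 0 changed sign in any setting, and 31 to 41 lost the call without 1 young library. HSBP1 turned to −0.0050 under library-size scaling. ACTB ranged from −0.11 to 0.014 with 1 library left out, above 0 without young heat shock replicate 1. Scaling moved ACTB further, to −0.35 by library size alone and −0.33 by limma on log2(TPM + 1). The 2-unit motif was in 27.9% of rises and 14.0% of all tested genes.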

Other observations

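Some called genes had 3 or fewer counts in a group, so no fold is given. BOLA2B had 0 and 0 counts in young controls and 103 and 82 in heat-shocked young cells, against 73 and 41 in senescent controls. The lipocalin gene LCN10 had 0 and 0 in young controls and 94 and 58 after heat. LOC400927-CSNK1E, a readthrough transcript, had 30 and 74 in controls and 0 and 0 after heat. The small nucleolar RNA SNORD14C, which lies within HSPA8, had 2 and 1 counts in controls and 33 and 16 after heat.

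Genes outside the lists rose as well. FAM46A had 39.4 and 39.4 CPM in young controls and 533 and 372 after heat (log2 change 3.52 ± 0.41, adjusted p = 0.00737 in edgeR). MICB, a stress ligand seen by the receptor NKG2D, had 22.2 and 32.3 CPM, then 165 and 195 (2.73 ± 0.32). JMJD6, a dioxygenase, had 37.0 and 29.3, then 170 and 179 CPM (2.40 ± 0.20), and was among the rises past the threshold in every one of 16 other settings. For each of these genes both heat libraries were above both controls. They were chosen after their values were seen.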
